A study of Rattus norvegicus with 4 samples.

Results

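The Rab GTPases described here were the genes of the array whose RefSeq symbol is Rab followed by a number and at most 2 further characters, which leaves out genes ending in ip, if or il such as Rab3ip. The rule found 54 genes on 70 probes, out of 16581 named genes on the array. Measured on all 4 arrays were 53 of the 54, out of 16506 named genes. NR8383 is an established rat line of alveolar macrophages, the phagocytes that live on the air side of the lung, first obtained by lung lavage of a normal rat. All 4 samples belong to a single group: cells after 20 passages, grown in DMEM medium with 15% serum, seeded for 48 h and then held for 4 h in DMEM with 10% fetal bovine serum, a condition the labels also mark with the letters ALI. Each biological replicate was hybridised to 1 one-colour array, no treated group is part of the series, and the labels do not say how separately the replicates were cultured.

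Rab proteins are small GTPases that mark the surface of each membrane compartment. An exchange factor loads a Rab with GTP, the active Rab recruits effectors such as tethers and motors, and a GTPase-activating protein ends the signal, while a lipid tail added to the protein's end holds it on the membrane. In macrophages a freshly closed phagosome carries Rab5, later exchanges it for Rab7 and then fuses with lysosomes, and other Rabs steer secretion, recycling and traffic between the endoplasmic reticulum (ER) and the Golgi.

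Levels are given as the log2 processed signal minus the array's own 75th percentile, so a level of 0 is the 75th percentile of signal and not an absent transcript. Levels of different genes come from different probes and are not set against each other. Probes of 1 gene can also lie far apart, as for Rab35, whose mean level of 2.16 averages probes that read 5.22 and -0.82 on replicate 2. The 75th percentile was between 83.4 and 167 signal units, lowest on replicate 1, and the 95th percentile of negative control spots was between 3.07 and 3.60. A gene was called detected when at least 1 of its probes had most of its spots well above the local background, by the scanner software's own flag, on all 4 arrays. Of 8 macrophage markers measured, 7 were detected, among them Cd68, Spi1, Csf1r, Mrc1 and Pparg, and Marco was well above background on 1 array. Of 17 markers of epithelium, fibroblasts, endothelium, T cells, B cells and neutrophils, Pecam1 and Cdh5 of endothelium were detected, and Sftpc, Krt5, Kdr and Cd3g were above background on 1 or 2 arrays. The part of such transcripts in the Rab values was not tested.

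The line expressed most of the Rab family. Of the 53 Rab genes measured, 39 were detected (73.6%), 2 were well above background on 1 array and 12 on none. Over all named genes the detected share was 53.1%, the share above background on some arrays 12.4% and the share on none 34.4%. A test with an error estimate, limma's fit of the signal over the 95th percentile of negative controls with Benjamini-Hochberg adjustment over all probes, called 42 of 53 Rab genes (79.2%), beside 70.1% of all named genes. The 3 genes it added were Rab17 (adjusted p = 0.00247), Rab9b (adjusted p = 0.0235) and Rab40c (adjusted p = 0.00213), and it called all 39 detected genes. The same 39 genes were detected without any one of the replicates. A member of the rule that could not be measured over 4 arrays was Rab33a, whose 1 spot was an outlier on replicate 4. Its signal was 11.2 on replicate 1, 13.3 on replicate 2 and 20.3 on replicate 3, well above background on the last 2 of these, and 208 in the outlier spot. Rab22a, Rab37, Rab42 and Rab44 had no probe that could be named and were not analysed here.

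**Figure D1:**
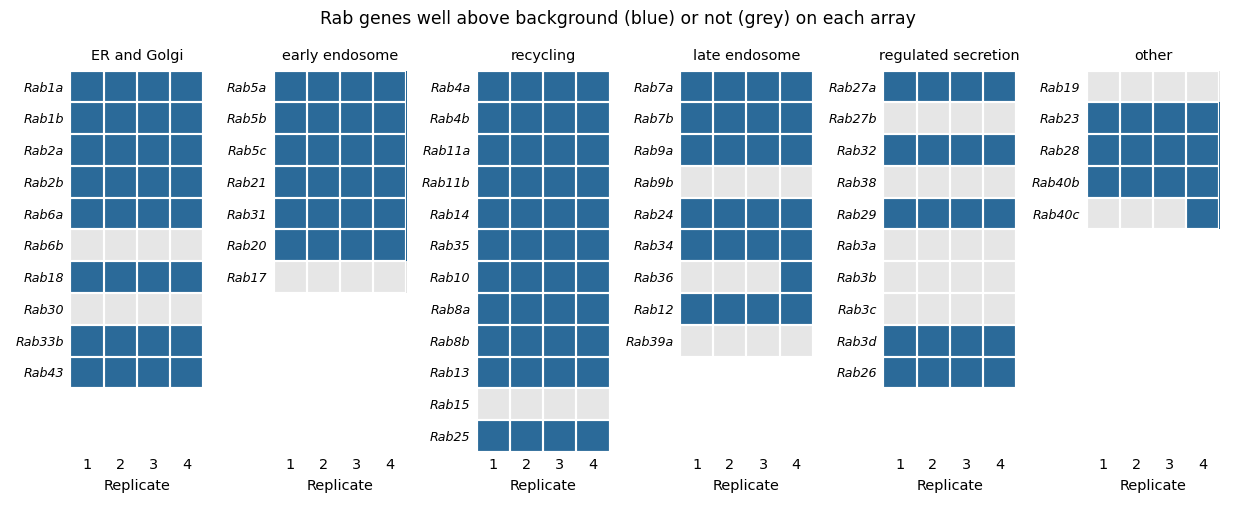
Each row is a Rab gene and each column 1 of the 4 replicate arrays, in blue where a probe of the gene was well above background and in grey where none was, arranged by role. Of 53 genes, 39 were blue on every array, and only Rab36 and Rab40c changed between arrays, both with 1 blue array.

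Some of the closest relatives within the family were split between a detected and an undetected copy. In 13 sets of related Rab genes, 7 had every measured member detected and 6 had 1. The split of the Rab9 and Rab40 sets did not hold by the limma test, which also called Rab9b and Rab40c above negative controls. The fully detected sets were Rab1, Rab2, Rab4, Rab5, Rab7, Rab8 and Rab11. In the others Rab3d, a Rab of secretory granules, was detected but not the Rab3a, Rab3b and Rab3c forms best known from nerve and endocrine cells, and Rab6a of the Golgi was detected but not Rab6b. The same held for Rab9a, which returns receptors from late endosomes to the Golgi, without Rab9b, for Rab27a without Rab27b, for Rab32 without Rab38, and for Rab40b without Rab40c. The 10 spots of Rab6b had median signals between 2.43 and 3.14 on the arrays, below the negative controls' 95th percentile of each array, and the 3 probes of Rab27b read between 2.08 and 8.09. Rab38 read 2.90, 2.27, 2.62 and 2.91 on replicates 1 to 4. Rab32 read 314, 460, 581 and 823. These signals come from different probes, so they show the calls and not the size of a difference. The sets were assembled with the calls known, and no share of split sets among other related genes was computed, so the split is a description.

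The start regions of a detected and an undetected relative are shown for 2 such sets, with every CG pair in capitals, since CG-rich starts are common in broadly expressed genes. The sequences are the 250 bases before the RefSeq gene start on assembly GRCr8, 5′ to 3′ on the gene's strand, at chr1:164369783-164370032 (plus strand) for Rab6a, chr8:112573973-112574222 (plus strand) for Rab6b, chrX:31609839-31610088 (plus strand) for Rab9a and chrX:105023873-105024122 (minus strand) for Rab9b.
Rab6a: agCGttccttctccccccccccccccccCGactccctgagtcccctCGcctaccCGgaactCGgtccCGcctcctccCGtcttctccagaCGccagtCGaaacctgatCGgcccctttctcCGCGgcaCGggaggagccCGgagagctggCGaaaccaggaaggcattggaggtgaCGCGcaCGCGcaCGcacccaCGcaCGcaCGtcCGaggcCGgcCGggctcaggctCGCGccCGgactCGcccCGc
Rab6b: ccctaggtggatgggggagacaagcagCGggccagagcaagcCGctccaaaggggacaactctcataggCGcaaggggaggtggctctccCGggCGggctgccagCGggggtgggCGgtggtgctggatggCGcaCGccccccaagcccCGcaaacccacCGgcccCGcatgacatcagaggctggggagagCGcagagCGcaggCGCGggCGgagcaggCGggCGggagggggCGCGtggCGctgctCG
Rab9a: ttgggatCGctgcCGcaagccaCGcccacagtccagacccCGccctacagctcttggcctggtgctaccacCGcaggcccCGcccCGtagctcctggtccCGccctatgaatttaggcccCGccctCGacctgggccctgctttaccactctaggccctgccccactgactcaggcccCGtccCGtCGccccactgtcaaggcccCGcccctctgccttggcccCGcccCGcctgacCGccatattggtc
Rab9b: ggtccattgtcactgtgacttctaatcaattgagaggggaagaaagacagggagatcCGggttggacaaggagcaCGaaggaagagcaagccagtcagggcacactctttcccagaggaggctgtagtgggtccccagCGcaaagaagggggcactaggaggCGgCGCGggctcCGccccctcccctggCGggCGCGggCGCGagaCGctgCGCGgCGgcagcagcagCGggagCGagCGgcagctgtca
The window of detected Rab6a held 31 CG pairs and that of undetected Rab6b 23. For detected Rab9a the count was 17 and for undetected Rab9b 19, so in these 2 sets the undetected relative was CG-rich as well. Other split sets went both ways. The count was 16 for detected Rab27a and 9 for Rab27b, and 25 for detected Rab3d against 16, 9 and 13 for Rab3a, Rab3b and Rab3c. For detected Rab40b it was 12 and for Rab40c 25. Among these sets the undetected relative had the higher count only for Rab9 and Rab40. Those splits did not hold by the limma test. A promoter was given for 45 of the 53 measured Rab genes. The median count of CG pairs was 18 over 33 detected and 12 over 12 undetected Rab genes, beside 16 over detected and 5 over undetected named genes. The lowest count among detected Rab genes was 3, for Rab14, followed by 4 for Rab7b. GGGCGG, a GC box searched on both strands, was in 28 of 33 windows of detected Rab genes (84.8%), beside 57.6% of the windows of all detected genes. It was also in 7 of 12 windows of undetected Rab genes (58.3%), beside 30.7% of those of undetected named genes. TATAAA, also searched on both strands, was in 0 of 45 Rab windows and in 11.6% of all named genes' windows, and CCAAT was in 33.3% and 35.2%.

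Among Rabs of early endosomes and young phagosomes 6 of 7 genes were detected, and Rab17, best known from epithelial cells, was not. All 3 forms of Rab5, which drives the fusion of early endosomes, were present. Rab5a read -2.08, -1.55, -1.59 and -1.57 on replicates 1 to 4, a mean of -1.70 ± 0.26 (SD, n = 4). Rab5b read 4.16, 3.92, 3.81 and 3.86 (3.94 ± 0.15), and Rab5c read 3.44, 3.77, 3.94 and 3.69 (3.71 ± 0.21). Replicate 1 was thus the lowest array for Rab5a and Rab5c and the highest for Rab5b. Rab21, which acts in integrin uptake, read 2.51, 3.57, 2.89 and 2.94, with replicate 2 the array farthest from the mean. Rab31, a regulator of traffic between the Golgi and endosomes, lay at 5.00 ± 0.18, and Rab20, a Rab of phagosomes, at 2.60 ± 0.24. The largest spread in this role was that of Rab21, whose range of 1.05 was one of 7 above 1 log2 unit in the family.

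Rab5a, Rab21 and Rab31 of this role were the Rab genes whose start window held CACGTG, an E-box that is the core of the element bound by the lysosome regulator TFEB. The windows are printed with that motif in capitals, as above from assembly GRCr8, at chr9:6720877-6721126 (plus strand), chr7:52814944-52815193 (minus strand) and chr9:112828093-112828342 (minus strand).
Rab5a: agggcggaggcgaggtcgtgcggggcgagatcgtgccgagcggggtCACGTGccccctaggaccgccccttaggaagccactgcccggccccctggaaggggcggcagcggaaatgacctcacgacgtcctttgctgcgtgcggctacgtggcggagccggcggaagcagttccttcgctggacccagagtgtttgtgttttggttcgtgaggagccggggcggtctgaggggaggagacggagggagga
Rab21: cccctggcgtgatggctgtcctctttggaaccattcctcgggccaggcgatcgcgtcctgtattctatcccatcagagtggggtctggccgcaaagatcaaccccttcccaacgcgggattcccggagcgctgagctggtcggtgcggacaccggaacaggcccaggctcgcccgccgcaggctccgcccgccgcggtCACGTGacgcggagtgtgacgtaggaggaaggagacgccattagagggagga
Rab31: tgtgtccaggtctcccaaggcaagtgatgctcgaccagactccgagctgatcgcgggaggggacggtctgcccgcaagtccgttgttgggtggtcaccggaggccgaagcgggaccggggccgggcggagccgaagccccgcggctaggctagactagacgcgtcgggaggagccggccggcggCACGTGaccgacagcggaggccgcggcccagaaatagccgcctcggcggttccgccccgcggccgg
The motif began 204 bases before the start in Rab5a, 52 in Rab21 and 66 in Rab31. It reads the same on both strands, and 3 of 45 Rab windows (6.67%) and 6.79% of all named genes' windows held it, so the family as a whole was at the background. All 3 fell among the 7 windows of the early endosome role, whose other windows, of Rab5b, Rab5c, Rab20 and Rab17, lacked it. The share in that role was not tested. A match is a description of these letters, not a measured binding site.

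Late endosome and lysosome Rabs were detected in 6 of 9 genes. Rab7a, which directs fusion of late endosomes and phagosomes with lysosomes, read 2.93, 3.09, 2.76 and 2.49 on replicates 1 to 4 (2.82 ± 0.26), and replicate 4 was its lowest array. Its relative Rab7b, known for traffic from late endosomes to the Golgi, read 0.72, 2.03, 1.79 and 1.56 (1.52 ± 0.57), so replicate 1 lay below every other array, by 1.07 against their mean. Both Rab7b probes were lowest there, by 1.76 and by 0.38 against the mean of the other arrays, and the 2 probes therefore differ in size. Rab9a read 1.22, 1.28, 0.98 and 1.0 (1.12 ± 0.15), and Rab12 lay at 1.37 ± 0.18 and Rab24, linked to autophagy, at 2.84 ± 0.30.

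Rab34, which positions lysosomes and acts in phagosome maturation, had a probe printed in 10 spots. It read 1.78 on replicate 1 and 0.99, 0.98 and 0.91 on replicates 2 to 4. The SD between its spots within an array was between 0.08 and 0.25. Replicate 1 lay 0.82 above the mean of the others, and spots of an array share 1 sample, so their SD gives no spread between samples. Rab36 was well above background on replicate 4 only, with signals of 4.40, 2.23, 7.76 and 17.2, and Rab9b and Rab39a on no array.

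Of the Rabs of recycling and of delivery to the plasma membrane 11 of 12 were detected, the exception being Rab15, whose 10 spots had median signals between 2.47 and 2.91. Rab4a, a Rab of fast recycling, read 3.25, 3.02, 2.90 and 2.82 on replicates 1 to 4 (3.00 ± 0.19), and Rab4b read 2.46, 2.23, 2.47 and 2.40 (2.39 ± 0.11). Rab11a, the marker of the recycling endosome, read 2.72, 3.07, 2.94 and 2.86 (2.90 ± 0.15). None of these 3 had a range above 0.44. Rab35 had the lowest SD of the family, 0.07 around 2.16. Rab25, the Rab11 relative best known from epithelial cells, was detected at -1.50 ± 0.27, with signals between 38.4 and 50.5. Rab14, which acts between the Golgi, endosomes and phagosomes, read 3.64 on replicate 1 and 4.20, 4.14 and 4.13 on the others, and each of its 3 probes was lower there than the mean of the others, though 1 of them by 0.14 only. Rab8b read 0.98 on replicate 1 and between 1.67 and 1.90 elsewhere, whereas Rab8a read 5.22 there and between 4.83 and 5.07 elsewhere, so these relatives lay on opposite sides.

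ER and Golgi Rabs were detected in 8 of 10 genes, without Rab6b and Rab30. Rab1a, which is needed for transport from the ER to the Golgi, read 4.20, 5.28, 4.86 and 4.85 on replicates 1 to 4 (4.80 ± 0.45), and both of its probes were lowest on replicate 1. Rab1b read 2.61, 2.79, 2.97 and 2.91 (2.82 ± 0.16), and Rab2a, which acts in the same route, read 4.79, 4.74, 4.58 and 4.55 (4.67 ± 0.12). Rab1a thus spread over 1.08 log2 units and Rab2a over 0.24. Rab6a lay at 1.41 ± 0.25, Rab18, a Rab of lipid droplets and the ER, at 2.48 ± 0.14, Rab33b at 2.12 ± 0.26 and Rab43 at 1.31 ± 0.33.

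The Rabs of regulated secretion and of lysosome-related organelles had the lowest detected share of the roles, 5 of 10 genes, which is near the 53.1% of all named genes. Rab27a, which brings secretory lysosomes to the plasma membrane, read 1.15, 0.14, 0.66 and 0.59 on replicates 1 to 4 (0.64 ± 0.41). Rab32, which delivers cargo to lysosome-related organelles and to phagosomes, read 1.91, 2.04, 2.20 and 2.30 (2.11 ± 0.17). Rab29, a partner of the kinase Lrrk2, read 4.80, 4.25, 4.30 and 4.22 (4.39 ± 0.27). Replicate 1 was highest for Rab27a and Rab29 and lowest for Rab32. Rab3d read -0.29, -2.30, -0.75 and -1.37 (-1.18 ± 0.87), and Rab26, a Rab of secretory granules, read 0.49, -0.75, -0.06 and -0.43 (-0.19 ± 0.53). Rab27a, Rab3d and Rab26 were all highest on replicate 1 and lowest on replicate 2. The processed signals before scaling were also lowest on replicate 2: 22.7 for Rab3d against 64.9 to 75.1 on the other arrays, 66.8 for Rab26 against 117 to 124, and 124 for Rab27a against 185 to 252. They were not highest on replicate 1, which read 68.1 for Rab3d against 75.1 on replicate 3. For Rab26 it read 117 against 124 on replicate 4, and for Rab27a 185 against 252 there.

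Of the remaining genes, Rab28 was among the steadiest, at 3.24, 3.18, 3.35 and 3.34 on replicates 1 to 4 (3.28 ± 0.08). Rab23, a negative regulator of Hedgehog signalling, read 0.08, 0.32, 0.22 and 0.35 (0.24 ± 0.12) on 1 detected probe. Its other probe was well above background on replicates 2 and 4, at 22.2 and 27.9, and not on replicates 1 and 3, at 6.86 and 12.3. Rab23 was the single case of probes on both sides of the call among 13 Rab genes with several probes, beside 25.5% of all genes with several probes. Rab40b, whose protein joins a ubiquitin ligase, read 1.12 on replicate 1 and -1.0, -0.75 and -1.12 on the others (-0.44 ± 1.05), the highest SD of the family. Its processed signal was 182 on replicate 1, the array with the lowest overall signal, and 56.2, 75.1 and 77.1 on replicates 2 to 4. Rab40c was well above background on replicate 4, at 21.8, and read 8.17, 7.35 and 8.68 on the others, and Rab19 was above background on no array.

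**Figure D2:**
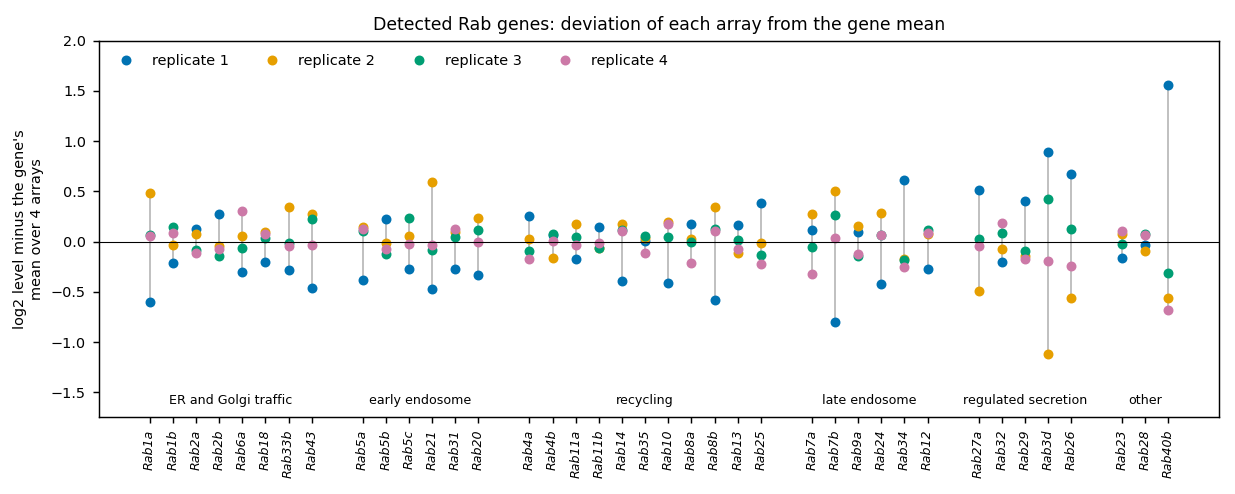
Each detected Rab gene is a column, and each point is 1 replicate's log2 level minus the gene's mean over the 4 arrays, with a grey line from the lowest to the highest array. Replicate 1 lay outside the other arrays in most columns, below them in much of the ER, Golgi and early endosome group and above them for Rab34, Rab29 and Rab40b.

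As a family the Rab genes spread between replicates like other genes, and replicate 1 was the array that stood apart. The median SD of the 39 detected genes was 0.24, with quartiles of 0.15 and 0.32, beside a median of 0.24 over all detected genes with quartiles of 0.15 and 0.36. Without replicate 1 the median fell to 0.11 in the Rab genes, beside 0.15 over all detected genes. Replicate 1 was the array farthest from the mean for 29 of 39 Rab genes (74.4%), beside 54.7% of all detected genes. It was the lowest array for 20 of them (51.3%, beside 32.8%) and the highest for 14 (35.9%, beside 42.3%). Replicate 2 was the highest array for 15 (38.5%, beside 21.9%) and replicate 3 for 6 (15.4%, beside 19.9%). In these data 1 array was separated from the next by a gap past Dixon's critical value in 6 of 39 Rab genes, Rab5a, Rab14, Rab34, Rab12, Rab29 and Rab40b (15.4%, beside 8.41% of all detected genes). Replicate 1 also had the lowest 75th percentile and the lowest share of spots well above background, 50.9% against 53.9% to 58.9% on the other arrays. The part of these array properties in the Rab values was not tested.

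**Figure D3:**
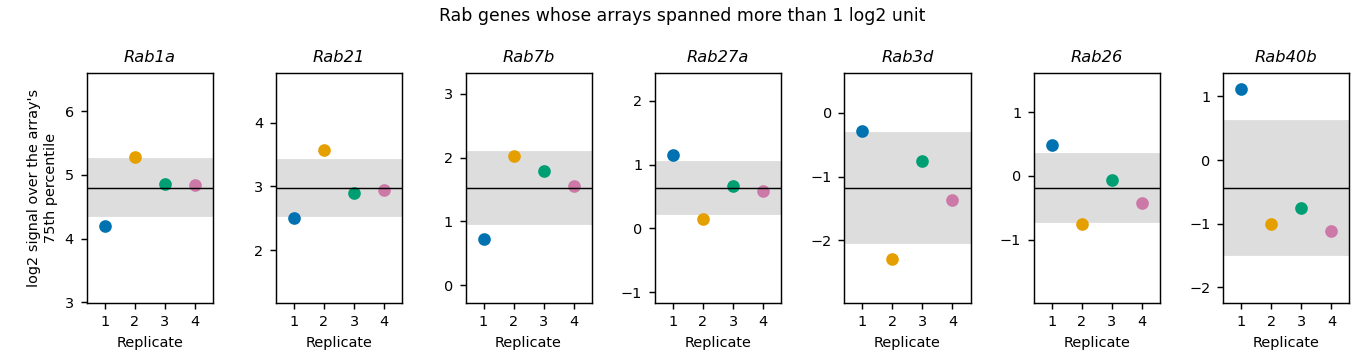
Points show the log2 level of each replicate for the 7 detected Rab genes with a range above 1 log2 unit, with the mean (line) and 1 SD (grey band, n = 4), each panel spanning the same number of log2 units around its own mean. Replicate 1 was lowest for Rab1a, Rab21 and Rab7b and highest for Rab27a, Rab3d, Rab26 and Rab40b.

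A range above 1 log2 unit, a 2-fold difference between the highest and lowest array, was found for 7 of 39 Rab genes (17.9%), beside 14.2% of all detected genes. These were Rab1a, Rab21, Rab7b, Rab27a, Rab3d, Rab26 and Rab40b. Without replicate 1 only Rab3d remained above that range, beside 3.45% of all detected genes, and without replicate 2 only Rab7b, Rab3d and Rab40b, beside 11.4%. All 7 remained without replicate 3 and without replicate 4. Over replicates 2 to 4 the median range was 0.21 in the Rab genes and 0.28 over all detected genes. Of 11 Rab genes with several detected probes, 8 had all of these probes on the same side of the other arrays on replicate 1, and Rab4b, Rab35 and Rab28 did not. The probes of Rab35 lay at 0.0 and 0.03 there, so neither was clearly on a side. The same share over all genes with several detected probes was not computed, so the count is not read as a result.

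The median difference on replicate 1 varied between roles, each of which held few genes. The median of replicate 1 minus the mean of the other arrays was -0.33 for the 8 detected ER and Golgi genes, of which 6 were lower there, and -0.40 for the 6 early endosome genes, of which 5 were lower. It was 0.69 for the 5 genes of regulated secretion, of which 4 were higher, with Rab32 at -0.27. It was 0.09 for recycling genes, -0.12 for late endosome genes and -0.05 for the others. Over all detected genes the median was 0.07. The difference between roles was not tested, since genes are not replicates. Under normexp background correction the secretion median was 0.42 and the recycling median turned to -0.18. For single genes the sign on replicate 1 depended on the scaling or correction for Rab2a, Rab4a, Rab4b and Rab35, and for Rab29 the difference of 0.54 was 0.00 under normexp. Under normexp the difference of Rab5a also shrank, from -0.52 to -0.02, that of Rab21 from -0.62 to -0.28 and that of Rab40b from 2.08 to 1.04.

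**Figure D4:**
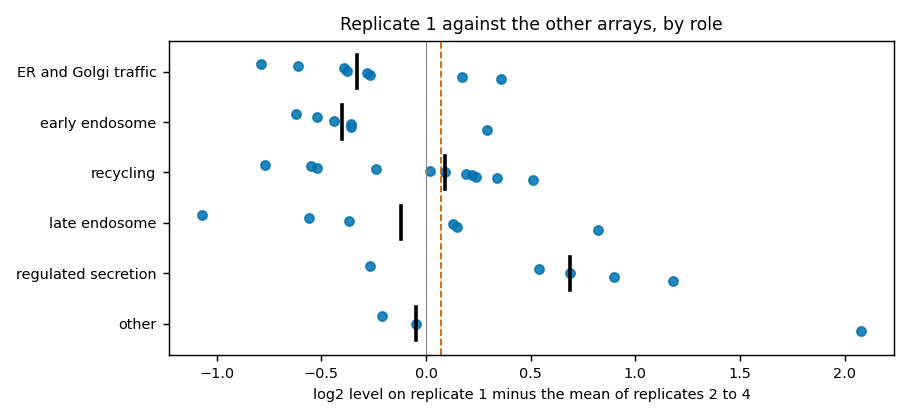
Each point is a detected Rab gene, placed by its log2 level on replicate 1 minus the mean of replicates 2 to 4, with a black bar at the median of the role and a dashed line at the median of all detected genes (0.07). Medians lay at -0.33 for ER and Golgi, -0.40 for early endosome and 0.69 for regulated secretion, and the point farthest right is Rab40b at 2.08.

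By the flag, the machinery that loads, unloads and reads Rab proteins was also largely expressed, apart from the effectors of secretion. The list held 125 regulator and effector genes, of which 96 were measured and the rest not analysed. Of the 96 measured, 80 were detected (83.3%), beside 53.1% of all named genes. All 8 genes of prenylation and membrane extraction were detected, including the escort proteins Chm at 1.22 ± 0.27 and Chml at -0.96 ± 0.21. Of the exchange factors 17 of 19 were, with the Rab5 activator Rabgef1 at 2.10 ± 0.14 and Rin2 at 3.58 ± 0.76. A spot of 1 of the 2 Rin2 probes lay in a patch of the surface that was dim on replicate 4. Rin1 was above background on 1 array and Rab3ip on none. GTPase-activating proteins reached 17 of 20, with Tbc1d1 at 4.26 ± 0.19 and Tbc1d5 at -0.08 ± 0.14, and without Tbc1d8, Rabgap1l and Sgsm1.

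All 8 early endosome effectors measured were detected, with Rabep1, a Rab5 effector, at 0.95 ± 0.35 and Rabep2 at 3.08 ± 0.28. Eea1, Appl1 and Pik3r4 of that list were not measured. All 12 late endosome effectors and tethers measured were detected, without a measure of Vps41. Among them were the Rab7 effectors Rilp, which binds the dynein motor, and Fyco1, which binds kinesin. Rilp read 3.12 on replicate 1 and 1.85, 1.95 and 1.79 on replicates 2 to 4, and Fyco1 read 3.70 and then 2.67, 2.44 and 2.44. Both were higher on replicate 1 than on every other array, where Rab7a was not and Rab7b was lower. Recycling effectors reached 6 of 8, with Rab11fip1 at 3.29 ± 0.19 and Rab11fip4 at -1.99 ± 0.57, and Golgi effectors 6 of 7, with Bicd2 at 4.25 ± 0.14 and Golga2 at 2.70 ± 0.19, of which 1 of 2 probes lay in the dim patch.

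Secretion effectors were the exception, with 3 of 11 measured genes detected (27.3%), while Exph5 and Sytl2 were not measured. These were the motor Myo5a at 3.92 ± 0.39, its Rab27a adaptor Mlph at -0.03 ± 0.32, and Unc13d, which primes secretory lysosomes, at -0.19 ± 0.65. The Rab27 effectors Sytl1, Sytl3, Sytl4, Sytl5 and Myrip and the Rab3 effectors Rims1 and Rph3al passed on no array, and Rph3a passed on 1. These are calls of the flag, and the limma calls of these genes are not given here. The kinases Lrrk1 and Lrrk2, which phosphorylate Rab proteins, were detected at -0.49 ± 0.47 and 1.0 ± 0.33, as was the Rab phosphatase Ppm1h at 3.00 ± 0.20.

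**Figure D5:**
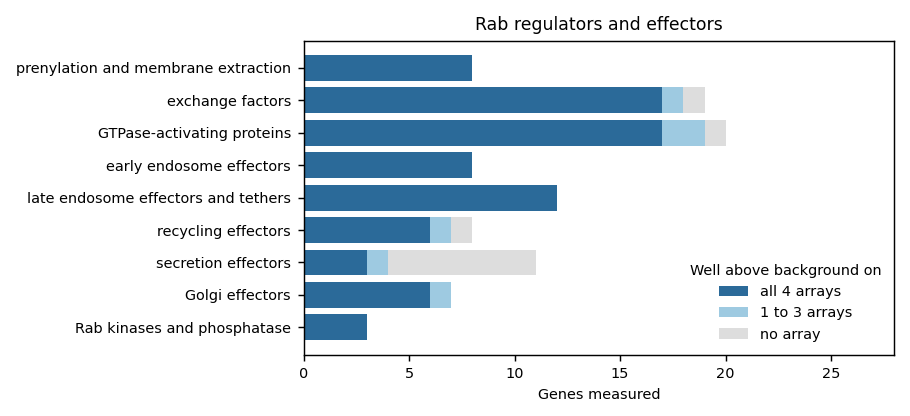
Bars give the number of measured regulator and effector genes in each role, split by whether they were well above background on all 4 arrays, on 1 to 3 or on none. Secretion effectors had 3 of 11 genes on all arrays. In the 4 roles of prenylation, early endosome effectors, late endosome effectors, and kinases and phosphatase every measured gene passed on all arrays.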

How the data were processed

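Total RNA of 4 replicates was labelled with Cy3 (100 ng each) and hybridised to 1 array each. The authors read the scans with Feature Extraction 11.0.1.1 from Agilent, per the submitters' processing notes. Its linear spot intensities, per the file headers, were deposited without scaling between arrays, beside flags of 0 or 1 for each spot. All arrays share a slide and a scan per the file headers, so neither could be tested as a batch.

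Of 62976 spots, 4259 controls and between 440 and 1206 outlier spots per array were left out. Spots of a probe were averaged on the log2 scale, which gave 45280 of 45598 probes on all arrays. Accessions were named through RefSeq (GRCr8), which named 21109 probes and 16581 genes. The rn4 build of the array gave no coordinates here, and start regions are RefSeq's. A gene's level is the mean of its detected probes. Members and lists were chosen with earlier results of these data known. Values were printed per replicate for the first 3 detected members of each role, members with a range above 1, probes on both sides of the call or detection on some arrays. The first 2 detected regulators of each role were given by mean and SD or per replicate. Genes named beyond these were chosen after their values were seen. The limma test was also run on simulated data. There it recovered 72% of probes set 1 log2 unit above the threshold and 96% of those set 2 above. The arrays were treated as replicates as labelled, so p-values measure the spread between these samples. With 4 arrays the number of arrays limits the precision. Computation used R 4.3.3, limma 3.58.1, data.table (version 1.17.8), pandas 2.3.3, numpy 2.4.6 and matplotlib 3.10.9. Alternatives were other detection calls, normexp with an offset of 50, quantile normalization, the 75th percentile over detected probes, other probe rules, the dim patch left out and each replicate left out. Normexp used median foreground signals, in place of the planned mean signals, for which the scanner columns used here gave no value.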

Additional observations from a re-analysis of the deposited data

Results flagged for a closer look

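In 6 of 39 detected Rab genes (15.4%), beside 8.41% of all detected genes, 1 array was separated from the next by a share of the gene's whole range past Dixon's 95% critical value, and in each of them that array was replicate 1. Chance flags about 5% of groups of 4 arrays. Replicate 1 was the low array for Rab5a (ratio 0.927), Rab14 (0.874) and Rab12 (0.878). Under normexp the difference of Rab5a on replicate 1 was -0.02, against -0.52 before. Rab12, the mean of 2 probes, read 1.09 there and between 1.44 and 1.48 elsewhere. Neither probe by itself set replicate 1 apart: 1 read 3.41, 3.77, 3.53 and 3.41 on replicates 1 to 4. The other read -1.23, -0.9, -0.56 and -0.51. A probe of Rab14 was also not lowest there, at 2.35 on replicate 1 and 2.31 on replicate 3. Replicate 1 was the high array for Rab34 (0.903), Rab29 (0.863) and Rab40b (0.836). Of the 18 regulators and effectors named by rule, Rilp (0.877) and Lrrk1 (0.856) were also apart and high on replicate 1, where Lrrk1 read 0.21 against -0.77 to -0.63 on the other arrays. Among the other detected regulators and effectors, Rabif (0.967), Rab3gap2 (0.845), Rufy1 (0.838) and Vps35 (0.838) were apart and low on replicate 1, and Exoc6 (0.981) was apart and low on replicate 3. All flagged regulators and effectors together were, as a share of the 80 detected, near the 8.41% of all detected genes. They are therefore not read as a result about that list.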

How the results depend on the processing

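No paired analysis was possible because the series has 1 group. The count of detected Rab genes was between 38 and 41 under every detection call tried, with Rab17 and Rab40c gained under the positive-and-significant flag and Rab23 lost when each gene was read from its first probe. The share of all named genes moved more, from 53.1% to 66.9% under that flag and to 50.5% with first probes, so 41 of 53 stands beside 66.9%. It was 39 without each replicate in turn. The count above negative controls was 41 without replicate 4 and 42 otherwise, and the regulator and effector count was between 77 and 86. The count of Rab genes with a range above 1 log2 unit was between 1 and 7 when single replicates were left out, and 11 of 53 with no filter on dim probes, which adds undetected genes. It was between 5 and 7 under the other scalings, corrections and probe rules. The count with replicate 1 farthest from the mean was between 25 and 33 of 39 under every alternative with detected genes only, and 37 of 53 with no filter. The median SD was 0.11 without replicate 1 and between 0.22 and 0.28 otherwise. A level depends on its reference: with the 75th percentile taken over detected probes all 39 levels moved by more than their SD, and 28 did under normexp, while none did under quantile normalization or without any one replicate. With the first detected probe 9 moved, among them Rab35 from 2.16 to 5.14, Rab1b from 2.82 to 5.56 and Rab12 from 1.37 to 3.53. Only 2 Rab genes, Rab34 and Rab6b, had a spot in the dim patch, 1 of 10 spots each. A gene near the negative controls, such as Rab36 (adjusted p = 0.0569, limma against negative controls), could not be told from background with 4 arrays.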

Other observations

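Among the tether and retromer subunits listed with the late endosome effectors, replicate 1 minus the mean of the others was negative for each Vps gene measured except Vps16, from -0.77 for Vps33a to -0.11 for Vps11, and 0.44 for Vps16. These genes were grouped after their values were seen: among the measured genes of their whole list 7 of 12 were lower on replicate 1, beside 44.2% of all detected genes. The geranylgeranyl transferase subunit Rabggta read 0.39, 0.09, -1.34 and -2.69 on replicates 1 to 4. Its 1 spot lay in the dim patch of replicate 4. That patch was drawn around dim readings of replicate 4 itself, and Rabggta is such a reading. The position of its spot is therefore no separate test of a surface fault. The level was already low on replicate 3, on which that patch was not defined. The part of the surface in the Rabggta values was not tested.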
